A study of Caenorhabditis elegans with 2 samples.

Results

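Chromatin immunoprecipitation followed by sequencing (ChIP-seq) of the tagged protein SOMI-1 in the nematode Caenorhabditis elegans gave 319 autosomal peaks that lay between protein-coding genes and away from their promoters. They were chosen from the 1667 peaks that passed the authors' reproducibility threshold, 1250 of them on the 5 autosomes. A peak was kept if its summit, the position of highest signal, lay outside every protein-coding gene. The summit also had to lie outside the stretch from 1000 bp upstream to 200 bp downstream of every annotated 5′ end of a protein-coding transcript. Summits within 500 bp of a tRNA or snoRNA gene were left out, which removed 45 of 364 peaks. The choice used position only, and no signal beyond the authors' threshold. The animals came from 1 group, strain OP752, with the mutation unc-119(tm4063) and the transgene wgIs752, which holds somi-1 joined to TY1, EGFP and 3xFLAG tags together with unc-119(+). They were whole young adults of mixed sex, aged 65.5 hours, grown from larvae that had been synchronised by starvation in the L1 stage. An anti-GFP antibody was used to precipitate the tagged protein in 2 biological replicates. The transgene is an added copy in 1 strain and the chromatin came from whole animals, so a peak cannot be assigned to a tissue. With 1 group there was no comparison of conditions.

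SOMI-1 is a zinc finger protein of the nucleus that was named after animals that overexpress the microRNA mir-84. In the compact genome of C. elegans most regulatory sequence is found close to genes, and enhancers farther away are marked by open chromatin and by bound transcription factors. Gaps between genes are called divergent where both flanking genes are transcribed away from the gap, tandem where they run the same way, and convergent where both end at it. A divergent gap thus has a 5′ end on each side and a convergent gap has none. Because worm transcripts are often trans-spliced, the annotated 5′ end of a gene can differ from the place where transcription begins.

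The sequences below are the 81 bases centred on the summits of peaks of high signal, read from RefSeq's WBcel235, which is the same assembly as ce11. They show the strongest intergenic peak and peaks that hold 3 words of 6 bases, on either strand, in capitals. The first is GACGCA, written TGCGTC on the opposite strand. The second is GAGAGA, with TCTCTC as its complement, and the third is CACGTG, which reads the same on both strands. Each sequence is named after the genes on its left and right, and the words are taken up again with their frequencies. Strong peaks without any of the words in their 81 bases were passed over, such as cutl-22/cmd-1 (signal 520) and mtm-3/xbx-5 (372). Some peaks with a word, such as K08F11.1/fbxb-78 (300) and D1046.4/tpra-1 (291), were left out too, although weaker ones are shown. The sequences shown thus do not give the share of peaks with a word.
sup-26/R10E4.3, chrIII:4282146-4282226, plus strand: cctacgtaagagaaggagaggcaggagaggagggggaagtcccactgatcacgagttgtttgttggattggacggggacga
T04C4.3/fnip-2, chrIV:2219573-2219653, plus strand: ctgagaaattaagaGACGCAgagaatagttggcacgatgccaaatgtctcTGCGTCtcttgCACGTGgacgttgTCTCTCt
aakg-1/gldi-8, chrIII:12583658-12583738, plus strand: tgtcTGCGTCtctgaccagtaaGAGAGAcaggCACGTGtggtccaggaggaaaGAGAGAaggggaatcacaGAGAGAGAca
Y17G7B.17/Y17G7B.18, chrII:12102544-12102624, plus strand: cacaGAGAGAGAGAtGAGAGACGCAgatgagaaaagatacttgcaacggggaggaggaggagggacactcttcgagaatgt
chw-1/egl-9, chrV:10466711-10466791, plus strand: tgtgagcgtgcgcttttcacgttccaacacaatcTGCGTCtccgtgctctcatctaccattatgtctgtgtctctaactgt
srw-60/nhr-88, chrII:2974041-2974121, plus strand: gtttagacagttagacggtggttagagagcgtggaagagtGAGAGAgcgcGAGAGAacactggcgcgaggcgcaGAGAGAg
lpin-1/letm-1, chrV:13658758-13658838, plus strand: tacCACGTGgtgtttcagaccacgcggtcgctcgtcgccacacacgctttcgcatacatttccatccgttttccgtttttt
lpin-1/letm-1, chrV:13657504-13657584, plus strand: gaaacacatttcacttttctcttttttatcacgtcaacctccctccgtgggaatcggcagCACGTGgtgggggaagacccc
gdh-1/tgt-1, chrIV:11956481-11956561, plus strand: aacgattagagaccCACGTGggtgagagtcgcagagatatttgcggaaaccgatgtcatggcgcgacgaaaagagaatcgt
idpb-4/mak-1, chrII:8742103-8742183, plus strand: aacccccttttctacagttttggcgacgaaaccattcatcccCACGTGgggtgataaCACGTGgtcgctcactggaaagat

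The summit of sup-26/R10E4.3 held none of the 3 words in these 81 bases, although GA-rich stretches were visible there. The window of T04C4.3/fnip-2 held GACGCA on both strands, 1 CACGTG and 1 TCTCTC. In aakg-1/gldi-8 all 3 words stood side by side. In Y17G7B.17/Y17G7B.18 and chw-1/egl-9 the words included GACGCA or its complement. The peaks of lpin-1/letm-1, gdh-1/tgt-1 and idpb-4/mak-1 held CACGTG.

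The signal of the intergenic peaks was about that of promoter peaks. The signal is the authors' peak value, a number without a stated unit. It ran from 91.1 to 574 in the intergenic peaks, with a median of 122 and quartiles of 104 and 164. The 548 autosomal promoter peaks, with summits inside the promoter window and the same tRNA and snoRNA filter, had a median of 125 and a highest value of 841. The 177 autosomal intron peaks had a median of 131 and a highest value of 591. The medians thus lay close together, and the highest values belonged to promoter peaks. All 3 classes had passed the same threshold, with lowest values of 91.1 (intergenic), 91.0 (promoter) and 91.1 (intron). The closeness of the medians therefore holds only for peaks above that common floor. At the top, 15 intergenic peaks (4.70%, Wilson 95% interval 2.87 to 7.61) were among the 100 strongest of the thresholded list. The same share was 6.39% (4.63 to 8.75) of promoter peaks and 9.60% (6.08 to 14.8) of intron peaks, with intervals that overlap. Peaks are not replicates, so intervals here cover counting error only and no test was made.

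Nearly all intergenic peaks were present in both replicates, which the authors' threshold favours by its construction. All 319 summits lay in a peak of replicate 1's own list and 317 in a peak of replicate 2's (99.4%, 97.7 to 99.8). In replicate 1 the matching peaks had signals of 19.0 to 279, median 64.8, and in replicate 2 of 27.5 to 305, median 64.7. The ratio of replicate 1 to replicate 2 had a median of 0.961 and ran from 0.285 to 3.71. Across the 317 peaks found in both, Spearman's rho of the replicate signals was 0.568 and Pearson's r on the log2 scale was 0.668. These points share libraries, a control and a threshold, and the correlation is a description. Among the peaks, 210 (65.8%) were also within the 1667 strongest of each replicate's own list.

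The peaks missing from replicate 2 were in the gaps mak-1/atf-2, where replicate 1 had 127 and the joint signal was 185, and gpb-1/F44E5.4, with 63.5 and 99.3. Extreme ratios occurred where summits lay close together. A second summit upstream of sup-26, 204 bp from the strongest one, had 86.9 in replicate 1 but fell in the same replicate 2 peak of 305 as its neighbour. In all, 16 intergenic peaks shared their replicate 1 peak with another one, and 24 shared their replicate 2 peak. Summits within 250 bp of another numbered 32, and the shortest distance between summits was 199 bp. Such neighbours are not independent measurements.

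**Figure D1:**
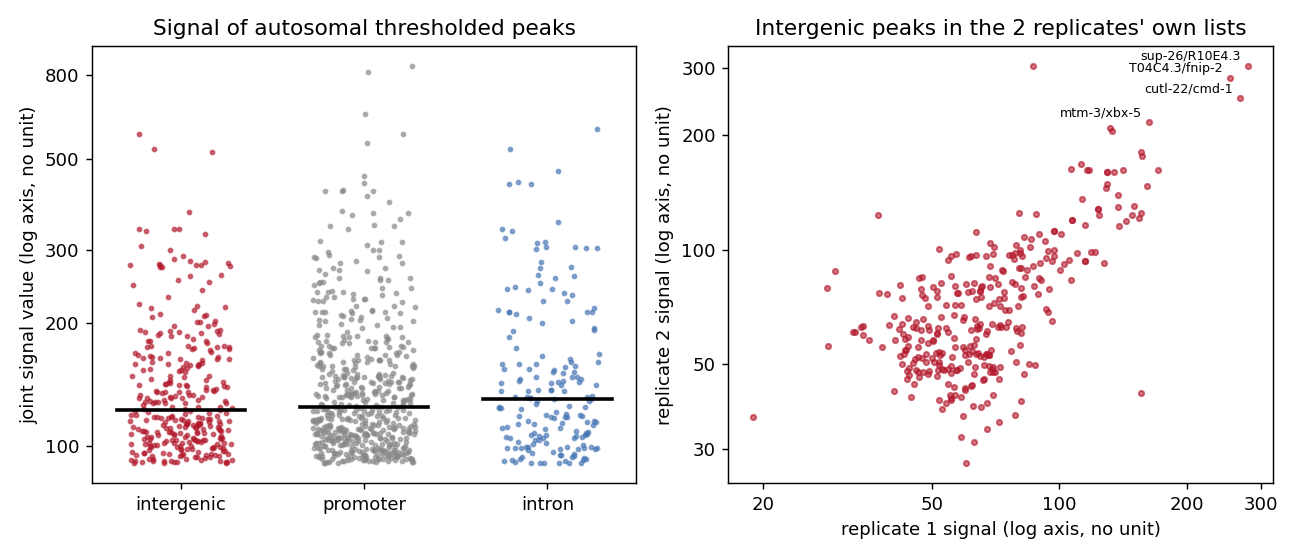
Left, joint signal (log axis, no unit) of each autosomal thresholded peak in the intergenic, promoter and intron classes, with a line at each median (122, 125 and 131). Right, the signal of each intergenic peak in the own lists of replicates 1 and 2 on log axes, for the 317 found in both, where the 3 strongest stand apart at the upper right.

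Relative to neighbouring genes, the intergenic peaks lay on the 5′ side of genes more often than the sequence open to them when the chromosomes were taken whole, and this lean was clearer in the arms. As background, every autosomal base that met the same rule was measured, 19.3 Mb or 23.3% of the autosomes, and these are called eligible bases. The nearest protein-coding 5′ end was downstream of the summit, so that the summit lay upstream of that gene, for 244 peaks (76.5%, 71.5 to 80.8), against 63.6% of eligible bases. The nearest gene edge of any kind was a 3′ end for 128 peaks (40.1%, 34.9 to 45.6), against 51.6% of eligible bases. Both shares thus leaned the same way, with the eligible value outside the interval. In the middle 50% of the chromosomes, which held 217 of the peaks, the nearest edge was a 3′ end for 43.3% (36.9 to 49.97), an interval that includes the 48.0% of eligible bases. In the arms it was a 3′ end for 33.3% (24.9 to 42.9) of 102 peaks, against 54.7%. Whether the zones differ was not tested.

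By gap type, 111 peaks (34.8%, 29.8 to 40.2) were in divergent gaps, which held 28.8% of eligible bases. Tandem gaps held 183 peaks (57.4%, 51.9 to 62.7) and 53.5% of eligible bases. Convergent gaps held 25 peaks (7.84%, 5.36 to 11.3) and 17.5% of eligible bases. Per Mb of eligible sequence this came to 20.02 peaks (exact Poisson 95% interval 16.5 to 24.1) in divergent, 17.7 (15.3 to 20.5) in tandem and 7.40 (4.79 to 10.9) in convergent gaps. Divergent and tandem gaps thus overlapped in density, and convergent gaps were lower than both.

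Median distances were close to those of eligible sequence, and long distances were rarer. The median distance from summit to nearest gene edge was 1749 bp, with a range of 18 to 13323 bp, and 1811 bp over eligible bases. The median distance to the nearest 5′ end was 2343 bp, against 2644 bp. Upstream of the nearest 5′ end the density was 23.6 peaks per Mb (18.1 to 30.2) up to 1500 bp, 16.2 (11.1 to 22.9) at 1500 to 2000 bp, 27.7 (21.8 to 34.7) at 2000 to 3000 bp, 17.7 (13.1 to 23.4) at 3000 to 5000 bp and 12.3 (7.69 to 18.6) at 5000 to 10000 bp. Downstream of it the density in the same ranges was 13.2 (7.70 to 21.2), 15.2 (8.09 to 25.99), 12.2 (7.21 to 19.2), 8.07 (4.41 to 13.5) and 7.46 (3.58 to 13.7). At 1500 to 2000 bp the sides were nearly equal. The density upstream was lower from 3000 bp on than at 2000 to 3000 bp. More than 5000 bp from every gene edge lay 27 of 319 peaks (8.46%, 5.88 to 12.03), against 12.6% of eligible bases. The shortest distance belonged to a peak 18 bp past the 3′ end of nhr-286, and the longest to a peak 13323 bp upstream of irld-18 in the 35563-bp gap irld-18/dmd-6.

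**Figure D2:**
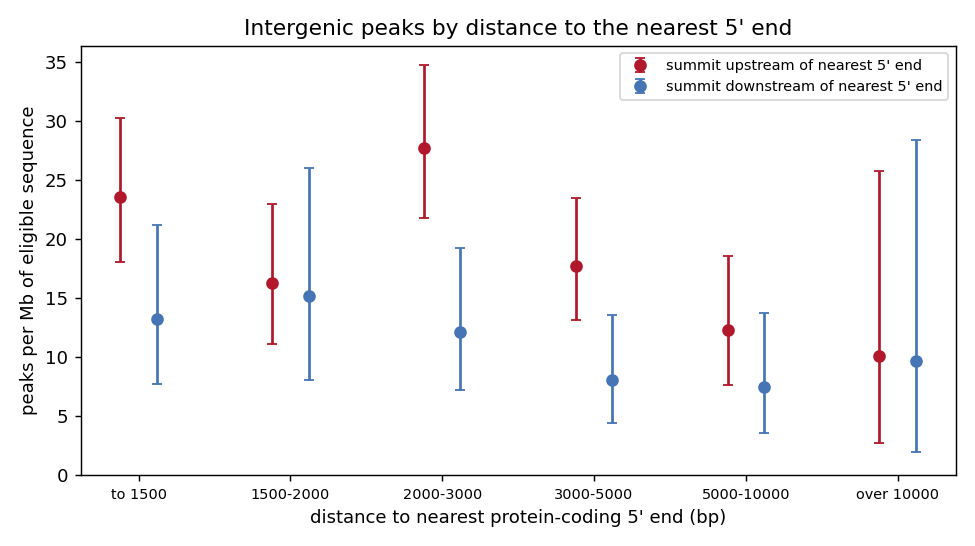
Intergenic peaks per Mb of eligible sequence (points) with exact Poisson 95% intervals (bars), by distance of the summit from the nearest protein-coding 5′ end and by side. Upstream points lie above downstream points at each distance, with overlapping intervals in all ranges but 2000 to 3000 bp.

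The intergenic peaks were concentrated in the middle of the chromosomes. The middle 50% of the autosomes held 217 of them (68.0%, 62.7 to 72.9) and 46.4% of eligible bases, a density of 24.3 per Mb (21.1 to 27.7) against 9.88 (8.06 to 11.996) in the arms. Promoter peaks were in the middle at 67.7% and intron peaks at 64.4%, so this was shared by all 3 classes. The gap types were compared within each zone. In the middle, divergent gaps had 24.5 peaks per Mb, tandem 26.0 and convergent 15.6 (9.09 to 24.98). In the arms they had 15.2 (10.9 to 20.7), 9.97 (7.47 to 13.0) and 3.50 (1.51 to 6.89). Convergent gaps were thus lowest in both zones, with intervals that overlap the others in the middle and not in the arms. By chromosome the density was 18.6 per Mb on I, 16.6 on II, 22.3 on III, 13.8 on IV and 14.9 on V.

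**Figure D3:**
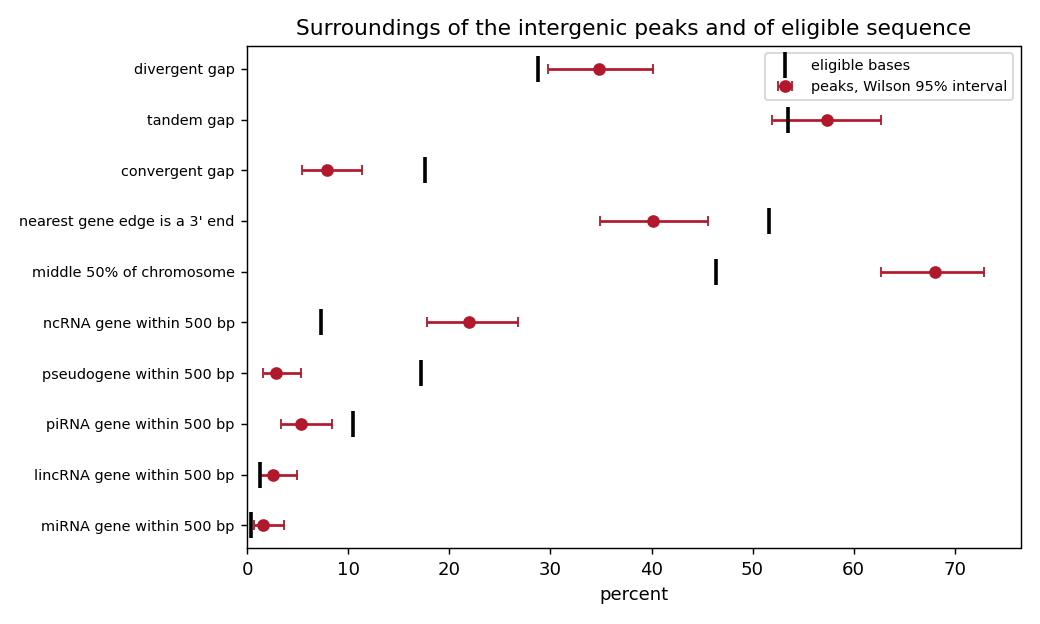
Share of the 319 intergenic peaks (points, with Wilson 95% intervals) and of eligible bases (black ticks), in percent, for gap type, nearest edge, chromosome zone and non-coding genes within 500 bp. The peaks exceed the eligible bases for ncRNA genes (21.9% against 7.29%) and the middle of the chromosomes, and fall short for pseudogenes (2.82% against 17.2%) and convergent gaps.

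The strongest intergenic peak lay 1962 bp upstream of sup-26, which encodes an RNA-binding protein with a role in sex determination. Its summit was at chrIII:4282186 and its signal was 574 jointly, 279 in replicate 1 and 305 in replicate 2, the sixth highest of the whole thresholded list. The next was in the divergent gap T04C4.3/fnip-2 at chrIV:2219613, 2757 bp upstream of T04C4.3 and 3215 bp upstream of fnip-2, with 529 jointly and 253 and 283 in the replicates. The third lay at chrV:1151499, 4772 bp upstream of cmd-1, the calmodulin gene, and 4998 bp past the end of cutl-22, with 520, 267 and 250.1. These 3 stood apart, since the fourth, at chrIII:3801553 between mtm-3, a myotubularin-family lipid phosphatase, and xbx-5, had 372.

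Of the 20 strongest, 14 were in tandem gaps, 5 in divergent gaps and 1 in a convergent gap, and 11 were nearest to a 3′ end. The peak at chrV:20778429 was 1978 bp upstream of hif-1, which encodes the hypoxia-inducible transcription factor, with 276 jointly and 129 and 146 in the replicates. A peak chosen after its values were seen lay 1766 bp upstream of egl-9, the prolyl hydroxylase that marks HIF-1 for degradation, with 251, 138 and 115. The peak at chrV:14200288 was 2588 bp past the 3′ end of atfs-1, the transcription factor of the mitochondrial unfolded protein response, with 277, 129 and 149. Such proximity does not show which gene, if any, a peak acts on.

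The single convergent peak of the 20 lay at chrIV:11956521 between gdh-1, which encodes glutamate dehydrogenase, and tgt-1, a tRNA-modifying enzyme, with a signal of 337. Its summit was 980 bp from the end of gdh-1 and 1026 bp from the end of tgt-1. The peak at chrI:8786965, with 338, was 1550 bp upstream of mfb-1 and 5999 bp upstream of sup-17, an ADAM-family protease of Notch signalling. On chromosome IV the peak at chrIV:9868144, with 334, was 11185 bp upstream of the nuclear receptor gene nhr-4 and 1995 bp past the end of K07F5.15. The gene that ended at this gap was thus much nearer than the one that began there. A peak of 337 at chrV:13658798 was in the gap lpin-1/letm-1. The remaining ones among the 20 had signals from 276 to 328. They were at chrII:2974081 (srw-60/nhr-88), chrIII:4649463 (T23F11.6/ppm-2), chrIV:8949867 (D1046.4/tpra-1), chrIV:8795210 (C33D9.3/clec-182), chrI:2639826 (F40E3.3/mage-1), chrIII:8658514 (F22B7.9/dpy-19), chrII:5543713 (C17C3.24/ins-13) and, in the gap K08F11.1/fbxb-78, at chrIV:4728022, chrIV:4725812 and chrIV:4725568.

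The 319 peaks fell into 258 gaps between genes, of the 7282 gaps with eligible bases (3.54%). One peak was found in 212 gaps, 2 in 34, 3 in 9 and 4 in 3. Gaps with a peak were larger, with a median of 4374 eligible bases against 1227 over all such gaps. Merging overlapping peaks left 303 regions. The counts per gap and per gene are of summits before this merging. Summits within 250 bp of another were a median of 202 bp apart.

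The gap lpin-1/letm-1 on chromosome V, 7127 bp long and divergent, held 4 peaks at 1379, 2421, 3415 and 4669 bp from lpin-1. Their signals increased along the gap from 112.2 and 122 to 239.9 and 337. In replicate 1 they had 66.1, 81.5, 124 and 133, and in replicate 2 they had 45.4, 62.8, 123.5 and 205. The replicates gave the same order, and the peaks nearer to letm-1 were the strongest. The gene lpin-1 encodes lipin, a phosphatidate phosphatase of fat synthesis, and letm-1 a protein of the mitochondrial inner membrane.

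The divergent gap idpb-4/mak-1 on chromosome II held 4 peaks, with signals of 154, 110.1, 219.8 and 108 from left to right. The last pair of summits was 208 bp apart and shared 1 peak in each replicate. The gap on the other side of mak-1, a gene of the MAP kinase-activated kinase family, held another 2 peaks just past its 3′ end, at 226 and 426 bp. With 6 peaks, mak-1 flanked more than any other gene. This count of summits includes the pair 208 bp apart and the 2 past its 3′ end, which were 200 bp apart. Of those 2, the one with a signal of 185 was missing from replicate 2. The tandem gap K08F11.1/fbxb-78 held 4 peaks with signals of 208 to 300.4, in 2 close pairs at 255, 499, 2709 and 2909 bp from K08F11.1. All 4 peaks lay 9336 bp or more from fbxb-78. They surround an annotated pseudogene, WBGene00023323, without a summit inside it.

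Upstream of sup-26 the strongest peak was joined by summits at 2166 and 4611 bp with 201 and 166. In the gap srw-60/nhr-88 the 3 peaks had 328, 109 and 107, and all lay nearer to nhr-88. Upstream of ret-1, the reticulon gene, there were peaks of 201, 100.2 and 192. The divergent gap irld-18/dmd-6 held 3 peaks, with 197, 157 and 121, spread over 20003 bp. Further gaps with 3 peaks were F54F12.1/Y39E4B.6, sptf-3/C01A2.9, Y37D8A.4/Y37D8A.5, pde-2/R08D7.7 and somi-1/cutl-1. The genes K08B12.3, npax-1 and gldi-3 flanked 3 peaks counted over both of their sides.

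**Figure D4:**
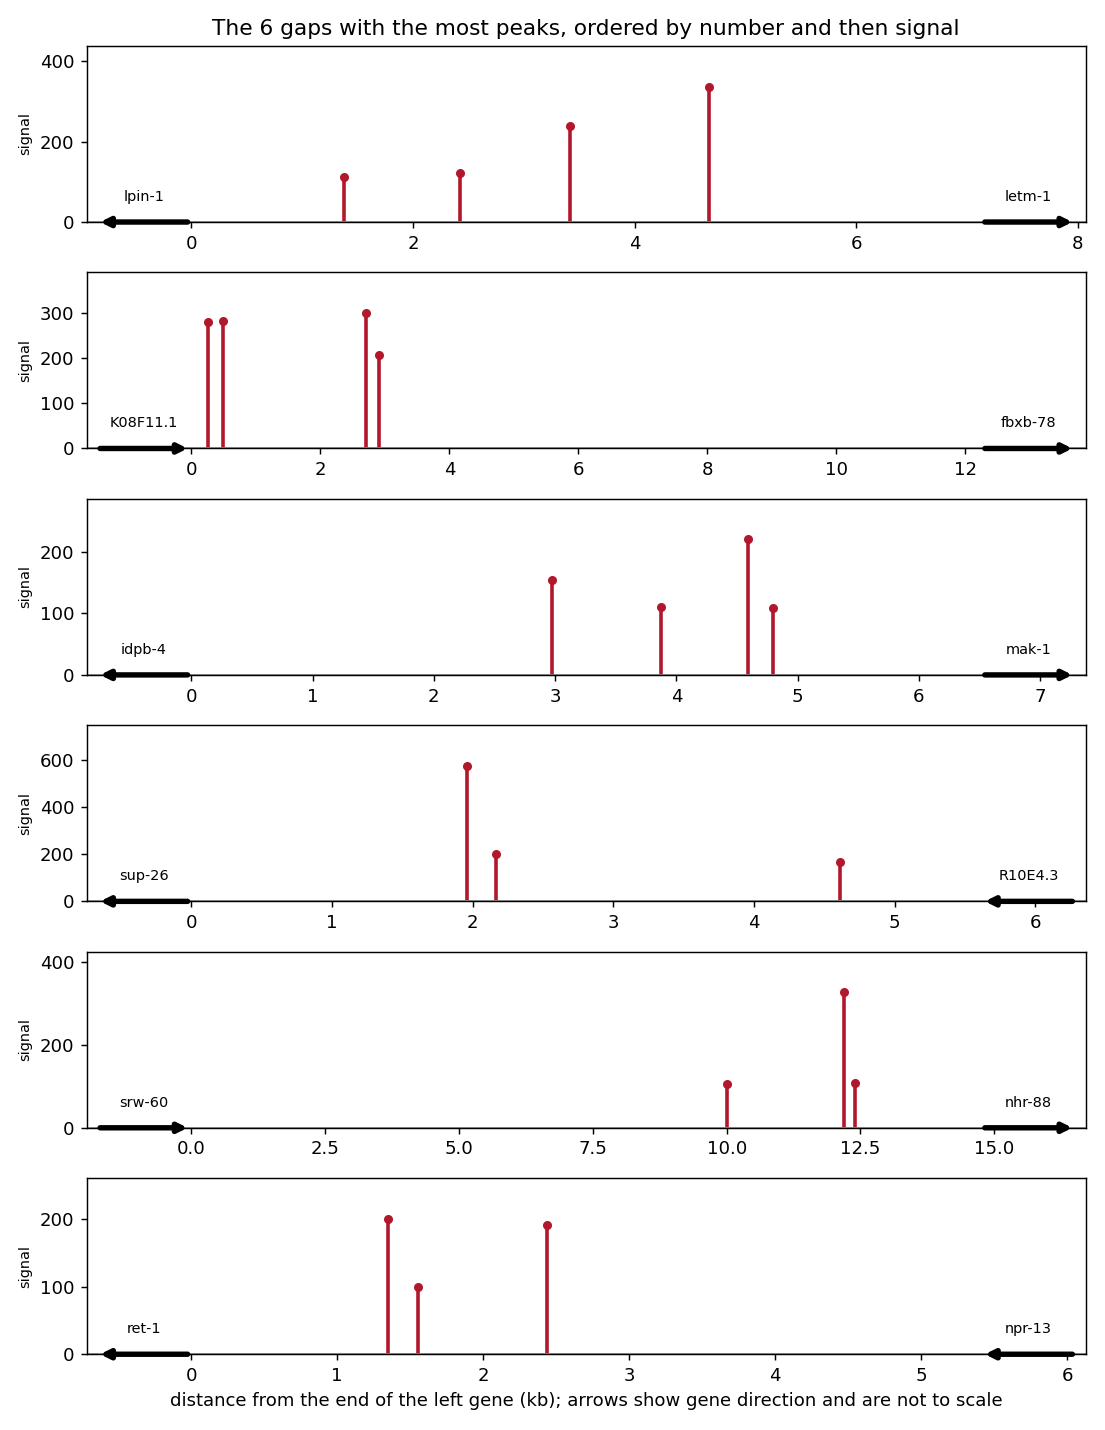
Each panel is 1 gap between protein-coding genes, with summits drawn at their distance in kb from the left gene and their joint signal (no unit) as height. Arrows give the direction of transcription. In lpin-1/letm-1 the signals increase towards letm-1, and in K08F11.1/fbxb-78 all 4 peaks lie near K08F11.1.

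The gap somi-1/cutl-1 needs care, because somi-1 itself is carried by the transgene. Its 3 peaks lay 2262, 5140 and 11148 bp upstream of somi-1, at signals of 128, 135 and 104. In replicate 1 they had 69.0, 79.6 and 56.8, and in replicate 2 they had 54.7, 61.1 and 55.6. Extra copies of this stretch in the transgene and binding at the native place cannot be told apart here. No intergenic peak lay within 50000 bp of unc-119, the other gene of the transgene.

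Of 11032 protein-coding genes that flank a gap with eligible bases, 508 flanked an intergenic peak, which is 4.6%. Gene families are described beside this share. The lists were drawn up by gene symbol with earlier results known, and none is a complete inventory of its family, so each count holds for the listed genes. A list of transcription factor genes other than nuclear receptors and homeobox genes had 11 of 93 beside a peak (11.8%). Their gaps held 21 peaks (6.58%, 4.35 to 9.85) and 3.27% of eligible bases, and 3 of the 21 are those of somi-1, which the transgene carries. The list lacks the transcription factor genes hif-1, atfs-1, fos-1, mef-2, sbp-1 and sptf-3, which also flanked peaks. Nuclear hormone receptors had 14 of 181 (7.73%). Their gaps held 16 peaks (5.02%, 3.11 to 7.99) and 3.65% of eligible bases, a share that lies inside the interval. The listed homeobox genes had 0 of 57, with 1.91% of eligible bases and a Wilson upper limit of 1.19% of peaks. A homeobox gene that is not on the list, unc-39, flanked a peak with a signal of 125, so the family as a whole was not without peaks.

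In the first group the strongest peak was 1145 bp past the end of the zinc finger gene ztf-27, with a signal of 259.8. Peaks of 218 and 114 lay upstream of dmd-7, and 3 lay upstream of dmd-6, both of the DM-domain family. The Krüppel-like factor gene klf-1 had a peak of 196 at 2833 bp upstream. Outside the naming rule, and chosen after their values were seen, daf-16 and mml-1 belong to the same group. The FOXO gene daf-16 of the insulin pathway had a peak of 175 at 2146 bp upstream, with 94.8 and 78.7 in the replicates. The Myc and Mondo-like gene mml-1 had peaks of 154 at 1849 bp upstream and 109.8 at 511 bp past its end. Among nuclear receptors the strongest were beside nhr-4, nhr-88, nhr-20 (273, at 4663 bp upstream) and nhr-5 (214, at 1460 bp upstream). For 12 of the 14 receptor genes at least 1 summit was upstream of the gene. The same share was not counted over all flanking genes, so it cannot be read as particular to receptor genes.

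Chemoreceptor genes, a very large group in this organism, had 9 of 950 genes beside a peak (0.947%). Their gaps held 11 peaks (3.45%, 1.94 to 6.07) and 10.2% of eligible bases. F-box genes had 1 of 201, with 4 peaks (1.25%, 0.489 to 3.18) on 2.81% of eligible bases. C-type lectin genes had 2 of 160, with 3 peaks (0.940%, 0.320 to 2.73) on 1.70%. For these 2 lists the interval includes the share of eligible bases. The F-box gene was fbxb-78, with its 4 peaks far upstream. Listed ion channel and transmitter receptor genes had 1 of 91, acr-18. The channel and receptor genes unc-103, unc-49 and cng-2, which are not on that list, flanked peaks with signals of 274, 135 and 102. Histone genes had 0 of 44, major sperm protein genes 0 of 23, proteasome genes 0 of 11 and heterochronic genes, which time larval development, 0 of 8. These last lists have few eligible bases, from 0.0328% to 0.297%, so few peaks could fall there.

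The other lists had up to 4 genes each beside a peak. Cuticle collagens and neuropeptide and insulin-like genes had shares below the 4.6% of all flanking genes. The rest were above it, in several cases with 1 gene only. By share of peaks, the interval included the share of eligible bases for all of these lists but 2. Those were microRNA machinery (0.489% to 3.18% against 0.162%) and, narrowly, translation (0.172% to 2.26% against 0.170%). Most of these lists are small, and no test was made. Cuticle collagens had 4 of 95 (4.21%) and neuropeptide and insulin-like genes 4 of 97 (4.12%). Ribosomal protein genes had 2 of 34 (5.88%) and heat shock genes 2 of 25 (8.0%). Muscle genes had 3 of 28 (10.7%), all of them actins, act-1, act-2 and act-3, which lie in 1 cluster. Of the listed genes, mitochondrial respiration had nuo-4 and atp-1 of 12 (16.7%) and G protein signalling gpb-1 of 20 (5.0%). Listed microRNA machinery had somi-1 and cgh-1 of 9 (22.2%), where 3 of the 4 peaks are those of somi-1, which the transgene carries. Listed translation genes had nars-1 of 19 (5.26%), listed vacuolar ATPase genes vha-16 of 8 (12.5%), and listed germline genes glh-4 of 19 (5.26%). Outside the lists, peaks were also flanked by nduf-7, a complex I subunit gene, aars-2, an alanyl-tRNA synthetase gene, and egl-10, a regulator of G protein signalling. The germline, heat shock and ribosomal protein lists likewise lack genes that flanked peaks, such as gld-4, F44E5.4 and ubl-1. The genes outside a list were named after their values were seen.

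Several list genes, picked here after their values were seen, had a peak close to their 3′ end. The summit was 63 bp past the end of hsp-1, an Hsp70-family chaperone gene, at a signal of 117. It was 74 bp past atp-1, an ATP synthase subunit gene, at 173, and 83 bp past rps-17, a ribosomal protein gene, at 118. It was 97 bp past cgh-1, an RNA helicase gene, at 120.3, and 198 bp past nuo-4, a complex I subunit gene, at 181. Over all peaks, 43 had a 3′ end as nearest edge within 500 bp, a density of 15.2 per Mb (10.98 to 20.4), close to the 16.6 of all eligible sequence.

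Annotated non-coding genes near the summits differed by class. Any such gene or pseudogene, tRNA and snoRNA genes apart, was within 500 bp of 98 peaks (30.7%, 25.9 to 36.0) and of 34.6% of eligible bases. The class annotated as ncRNA, whose genes here mostly have no family name, was within 500 bp of 70 peaks (21.9%, 17.8 to 26.8) against 7.29% of eligible bases. Summits inside an ncRNA gene numbered 31 (9.72%, 6.93 to 13.5), against 1.36%. Pseudogenes were within 500 bp of 9 peaks (2.82%, 1.49 to 5.27) against 17.2%, and piRNA genes of 17 (5.33%, 3.35 to 8.37) against 10.48%. The summits were thus more often near ncRNA genes and less often near pseudogenes and piRNA genes than eligible bases were. The ncRNA share was 23.0% against 11.1% in the chromosome middles and 19.6% against 4.03% in the arms. The pseudogene share was 3.69% against 11.4% and 0.980% against 22.2%.

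Repeat content was measured only as a whole and not by class of non-coding gene. Soft-masked sequence, which RefSeq marks as repetitive, made up a median of 22.9% of an intergenic peak and 41.3% of eligible bases. The first value is a median over peaks and the second a share of single bases, so they are unlike measures. The part of repeats in the low share near pseudogenes was not tested.

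The lincRNA gene linc-128 held the summit of signal 520 upstream of cmd-1, and linc-91, linc-110 and linc-129 held summits of 158, 115 and 102. Among ncRNA genes, the summits of highest signal were in H37A05.6 (337, in lpin-1/letm-1), ZK829.13 (337, in gdh-1/tgt-1), T23F11.10 (306), and the overlapping pair F22E12.9 and F22E12.10 (251, in chw-1/egl-9). The SL2 trans-splice leader RNA gene sls-2.2 ended 6 bp from a summit of 276 beside ins-13. The single summit inside a pseudogene was in WBGene00005445, at 92.1.

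MicroRNA genes were within 500 bp of 5 peaks (1.57%, 0.671 to 3.62), against 0.361% of eligible bases. The summit was inside mir-8209 at a signal of 148 and inside mir-52 at 106. It was 90 bp from mir-51 at 168, and summits at 173 and 378 bp from mir-80 had 209.9 and 114. The genes mir-51 and mir-52 belong to 1 microRNA family. Counts this small allow no more than a list of the genes.

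The 3 words printed in capitals above were more frequent at the summits than beside them. All 3 were chosen with earlier results of these data known, so their excess at the summits is a description and not a test. GACGCA was found, on either strand, within 50 bp of the summit in 49 peaks (15.4%, 11.8 to 19.7). In windows of the same size 300 bp to the left and right it was found in 0.627% and 0.940%, and in windows centred on eligible bases in 2.03%. Promoter peaks had it in 17.5% (14.6 to 20.9) and intron peaks in 11.9% (7.89 to 17.5). It was in 25 of the 159 strongest intergenic peaks (15.7%) and in 24 of the other 160. Where present, the nearest copy was a median of 19.5 bp from the summit, and in 27 peaks it was within 25 bp.

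GAGAGA and CACGTG were singled out after their values were seen. The 3 words are not the 3 with the largest excess over the flanks. Other words of 6 bases, some of which overlap GAGAGA, exceeded their flanks by more than CACGTG did. For example, AAGAGA was in 31.7% of peaks, against 7.52% and 8.46% in the flanks. AGAGAC was in 25.1%, against 5.64% and 3.76%. GAGAGA was in the window of 115 peaks (36.1%, 31.0 to 41.5), against 11.3% and 8.46% in the flanks and 5.54% of eligible windows. Promoter peaks had it in 27.01% (23.5 to 30.9) and intron peaks in 32.8% (26.3 to 39.99). CACGTG is the palindrome known as an E-box that basic helix-loop-helix proteins can bind. It was in 31 peaks (9.72%, 6.93 to 13.5), against 2.19% and 1.254% in the flanks and 1.42% of eligible windows. Promoter peaks had it in 9.31% (7.15 to 12.03) and intron peaks in 11.9% (7.89 to 17.5). At least 1 of the 3 words was in the window of 160 peaks (50.2%, 44.7 to 55.6) and of 8.53% of eligible windows. GACGCA and GAGAGA occurred together in 25 peaks (7.84%) and in 0.334% of eligible windows. The ends of these words can overlap each other, so their counts are not separate. A match is a run of letters and not a measured binding site.

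The words were not spread evenly between the zones of the chromosomes. GACGCA was in 27.5% (19.7 to 36.8) of the 102 peaks in the arms and in 9.68% (6.42 to 14.3) of the 217 in the middles, while eligible windows had 2.13% and 1.93%. GAGAGA was in 50.98% (41.4 to 60.5) of arm peaks and 29.0% (23.4 to 35.4) of those in the middles. The 102 arm peaks thus carried both words more often, with intervals that did not overlap, and the difference was not tested. For CACGTG the shares were 11.8% and 8.76%, with overlapping intervals.

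**Figure D5:**
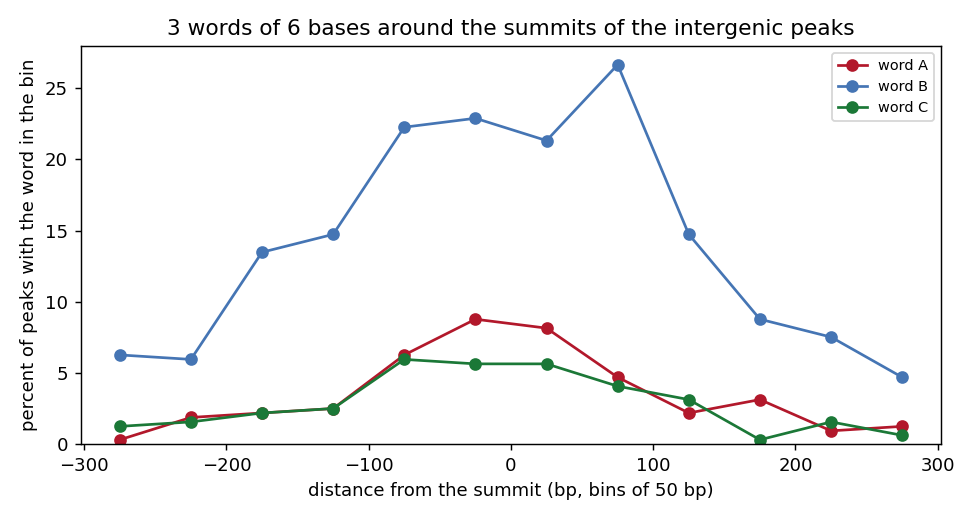
Percent of the 319 intergenic peaks with a word in each 50-bp bin, by distance of the bin's centre from the summit in bp, where word A is GACGCA, word B is GAGAGA and word C is CACGTG, on either strand. All 3 are most frequent within about 100 bp of the summit, and word B is spread more widely than word A.

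Base composition moved with the peaks and with the words. The same windows at the summit had a median GC content of 42.6%, against 33.7% for eligible windows, 46.5% for promoter peaks and 45.5% for intron peaks. The density of peaks was 2.78 per Mb in eligible sequence of up to 30% GC, 11.9 at 30 to 40%, 35.8 at 40 to 50% and 86.1 above 50%. Within the 40 to 50% class, GACGCA was in 16.8% of 137 peaks and 3.78% of eligible windows, and GAGAGA in 40.9% and 9.68%. In that class ncRNA genes were within 500 bp of 24.1% of peaks and 9.34% of eligible bases, and pseudogenes of 2.92% and 22.03%. In sequence of up to 30% GC, which held 18 peaks, ncRNA genes were near 5.56% (0.988 to 25.8) of peaks and 5.68% of eligible bases, and pseudogenes near 11.1% (3.10 to 32.8) and 11.9%. The part of base composition in these shares was not tested. Signal itself had a Spearman's rho of 0.197 with GC content and of -0.00782 with distance to the nearest gene edge, across the 319 peaks.

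At the limits of the rule, 11 intergenic peaks with summits up to 100 bp beyond the limit of 1000 bp upstream of the nearest 5′ end had signals of 92.9 to 372, median 136. The 13 intergenic summits up to 100 bp inside that limit, which the rule left out, had 92.2 to 365, median 139. At the signal threshold, the weakest intergenic peak had 91.1, and the strongest eligible summit of the joint list below the threshold had 91.0. The joint list, before thresholding, held 4114 summits that met the rule on position.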

How the data were processed

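ChIP-seq peak lists on the ce11 assembly were used, per the labels. According to text files that accompany the samples, the authors called peaks on each of 2 biological replicates and on both together, each against 1 control alignment, and derived a thresholded list by irreproducible discovery rate. The control was not analysed here. The read depth is not given in the sources used here, and nor are the aligner, the peak caller and their settings, so counting limits per peak are unknown. The signal and the −log10 q-value of each peak are the authors' deposited values. Signal was ranked within a list only, apart from the ratio and correlation of the replicates' own signals. At the highest −log10 q-value stood 261 of the 319 intergenic peaks, so it was not used to rank them.

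Genes came from Ensembl release 115 (WBcel235) and sequence from RefSeq's copy of that assembly. Positions are 1-based. Chromosome middle means the central 50%. Scripts ran in Python 3.11.15 with numpy 2.4.6, pandas 2.3.3, scipy 1.17.1 and matplotlib 3.10.9, and were tested on simulated data. Shares carry Wilson 95% intervals and densities exact Poisson ones, all covering counting error only. The replicates are separate biological samples of 1 group.

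The peaks, gene lists and words were chosen with earlier results of these data known. Genes named are those flanking the 20 strongest peaks or at least 3 peaks, up to 4 per list by signal, and up to 5 non-coding genes per class, with exceptions stated. Of the 22 lists, the smaller ones were described by counts. Alternatives changed the promoter window, the distance to tRNA and snoRNA genes, the peak list, the overlap rule and the replicates.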

Additional observations from a re-analysis of the deposited data

How the results depend on the processing

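Over 9 results (the number of intergenic peaks, their median signal, the share in both replicates, and the shares and distance by place, non-coding gene, word and chromosome zone), 93 values under alternatives stayed near those reported, 13 moved and none reversed. The 93 include the values for 5′ ends of all transcripts of protein-coding genes, which were identical to those reported. A promoter window of 500 bp upstream to 100 bp downstream gave 423 peaks against 319. That rise is counted among the 93, although it is not small. The same window gave a median distance to the nearest gene of 1285 bp. One of 2000 bp upstream to 500 bp downstream gave 212 peaks and 2452.5 bp. The stronger 50% of the thresholded list gave 155 peaks and a median signal of 166. The joint list before thresholding gave 4114 peaks with a median signal of 40.1, of which 46.2% were in both replicates, 50.2% were nearer to a 3′ end, 29.3% were in divergent gaps, 5.18% had GACGCA and 56.6% were in the chromosome middles. The position and word shares thus stood closer to those of eligible sequence there. A replicate summit within 100 bp, in place of a summit inside a peak, gave 93.1% in both replicates.

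Run on the 1667 strongest peaks of 1 replicate alone, the rule gave 304 to 325 peaks, 42.2% to 42.8% nearer to a 3′ end, a median distance of 1670.5 to 1684 bp, 33.2% to 36.0% in divergent gaps, 28.9% to 31.9% near a non-coding gene, 14.1% to 14.2% with GACGCA and 64.0% to 70.1% in the middles. Median signal and the share in both replicates were not run without a replicate, since signals of different lists are not comparable and the share needs both. No paired analysis was possible because there was 1 group. Read depth is unknown, so absence from a list does not show absence of binding.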
